A study of Mus musculus with 6 samples.

Results

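The genes described here encode IL1RAP, which is the accessory subunit of the receptor for IL-33, and the proteins that act directly behind that receptor: Il1rap, Myd88, Irak1, Irak2, Irak3, Irak4, Traf6, Sigirr, Map3k7 and Tab2. They were listed by name, and each was represented by the probe set that the platform annotation assigns to that gene symbol alone, or, where there were several, by the brightest of them on average across the 6 arrays. Of the 10 genes, 9 were measured in this way, among 22180 genes in all. Irak4 had no probe set in the annotation used here, with a single symbol or with several. The same held for Il1rl1, the other chain of the IL-33 receptor (ST2), so neither level was analysed here. The annotated probe sets thus give no value for the chain that binds IL-33. The 16010 unnamed probe sets were not searched for either gene.

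Raw 264.7 is a mouse line of monocytes and macrophages. Cells were grown in DMEM with 10% serum, starved, and then kept in DMEM with 2% serum, either with IL-33 at 50 ng/ml (3 arrays) or with PBS (3 arrays); no other allele or agent is named, and the length of exposure was not stated. Both groups come from this 1 line. Groups follow the sample titles, but the array names in the descriptions carry the letters IL on the PBS samples and the letter P on the IL-33 samples, and every direction below would turn if the titles were exchanged. The labels do not say whether replicates were separate cultures, so the p-values reflect only how much these samples vary, and that variation may be technical.

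Values are log2 expression made with RMA, and a difference is the IL-33 mean minus the PBS mean. Array medians lay between 5.31 and 5.36 and array maxima between 13.62 and 13.66, and the number of arrays limits the precision. All 9 measured macrophage markers, among them Csf1r and Cd68, were brighter than the median gene (5.75), with means from 9.56 to 12.88, and 1 of them rose, the IgG receptor Fcgr1, by 0.49 (adjusted p 0.0448, limma). Of these 9, 5 differences were above 0 and 4 below, and 2 had an unadjusted p under 0.05, the other being Adgre1, which encodes F4/80, at -0.29 (adjusted p 0.114, limma). The 8 mast cell and basophil markers all lay below that level, at 2.76 to 5.45, and none passed (0 also at an unadjusted p under 0.05, limma). Of the 7 measured lymphocyte and ILC2 (innate lymphoid cell) markers, 3 lay above it, namely Il7r, Gata3 and Rora. Of the 7, 1 fell, the IL-7 receptor chain Il7r, from 11.63 to 11.08 (adjusted p 0.0317, limma). All 7 differences were below 0, as were 11551 of all 22180 genes. Their median was -0.11 and the smallest was -0.0028, of Cd79a. Of the 7, 2 had an unadjusted p under 0.05, the other being the nuclear receptor Rora at -0.37 (adjusted p 0.170, limma). Among all genes, 0.591% passed and 13.2% had an unadjusted p under 0.05 (limma). Of the 7 fibroblast and endothelial markers 2 lay above it, the highest at 6.31, and none passed (0 also at an unadjusted p under 0.05, limma). Whether these markers had a part in the values below was not tested.

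IL-33 is a cytokine of the IL-1 family. It binds ST2, which then pairs with the accessory chain IL1RAP, a subunit that the receptors for IL-1 and IL-36 share. The paired intracellular TIR domains recruit the adaptor MyD88, which assembles the kinases IRAK4, IRAK1 and IRAK2. These engage the ubiquitin ligase TRAF6, whose ubiquitin chains are bound by TAB2, and TAB2 brings in the kinase TAK1 (gene Map3k7), which switches on the IKK complex and the MAP kinases. IRAK-M (gene Irak3) and the receptor SIGIRR restrain the pathway. In macrophages the same adaptors serve the Toll-like receptors.

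The promoters of 4 genes are shown because they hold the letters that factors of this pathway and of the interferon response can recognise, or, for Irak2, because its difference had the smallest p. Sequences are RefSeq's, of build GRCm38.p6, written 5′ to 3′ on the gene's strand over the 250 bases before the annotated start, with matches in capitals; for Map3k7 only 30 bases around the match are given. The Myd88 window is chr9:119340019-119340268 (minus strand), that of Irak1 chrX:74023922-74024171 (minus strand), that of Irak2 chr6:113638217-113638466 (plus strand), and the Map3k7 site chr4:31964005-31964034 (plus strand).
Myd88: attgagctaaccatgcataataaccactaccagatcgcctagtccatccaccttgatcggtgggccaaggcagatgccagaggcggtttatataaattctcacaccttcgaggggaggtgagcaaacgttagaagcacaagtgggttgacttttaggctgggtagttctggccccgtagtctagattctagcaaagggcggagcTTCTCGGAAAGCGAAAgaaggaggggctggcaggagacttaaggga
Irak1: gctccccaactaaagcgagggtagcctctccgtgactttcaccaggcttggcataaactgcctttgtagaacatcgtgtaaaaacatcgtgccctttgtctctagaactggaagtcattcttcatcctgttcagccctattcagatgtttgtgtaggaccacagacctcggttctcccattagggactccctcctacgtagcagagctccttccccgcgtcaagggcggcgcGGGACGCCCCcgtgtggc
Irak2: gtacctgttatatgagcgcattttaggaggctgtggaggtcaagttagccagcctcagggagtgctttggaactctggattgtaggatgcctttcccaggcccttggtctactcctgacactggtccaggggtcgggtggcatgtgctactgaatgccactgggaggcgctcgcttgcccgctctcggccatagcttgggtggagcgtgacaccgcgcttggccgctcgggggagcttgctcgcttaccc
Map3k7: ccccgggtcaGGAAATTCCCcgctcgggtc

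Both strands were searched for an interferon-stimulated response element (ISRE, GAAANNGAAA), a gamma-activated site (GAS, TTCNNNGAA), an AP-1 site (TGANTCA) and the kappaB consensus. Windows were given for 9 of the 10 genes, 12 windows in all, and none for Sigirr. Myd88 held GAAAGCGAAA, 40 to 31 bases before its start, and TTCTCGGAA, 46 to 38 bases before it; these matches overlap and print as 1 capital run. Irak1 held the kappaB match GGGACGCCCC, 18 to 9 bases before the start used for the window shown. The same match lay 21 to 12 bases before the other annotated start of Irak1. Map3k7 held the kappaB match GGAAATTCCC, 92 to 83 bases before its start. The windows of Il1rap, Irak2, Irak3, Irak4, Traf6 and Tab2 matched none of the 4. Of all 32851 windows, 2.98% held the ISRE letters, 7.02% the GAS letters, 6.75% the AP-1 letters and 7.25% the kappaB consensus. A match describes letters only.

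The comparison asked how the transcripts of the receptor-proximal proteins differed between cells with and without IL-33. None of the 9 measured genes reached an adjusted p under 0.05 (Benjamini-Hochberg over all genes, from the limma fit), while 0.591% of all genes did, 0.275% higher and 0.316% lower. At an unadjusted p under 0.05, 2 of the 9 passed, Il1rap and Irak2, against 13.2% of all genes. Of the 11090 genes at or above the median level, where 8 of the 9 lay, 1979 did (limma). The same 2 genes were those whose PBS and IL-33 values did not overlap, both with the higher values in the IL-33 arrays. Among all genes 20.3% did not overlap, and 3314 of the 11090 at or above the median level did not. Of the 9 differences, 6 were above 0 and 3 below, where 10629 of all 22180 genes were above 0. They ran from -0.04 to 0.29, with a median of 0.04 against -0.0051 over all genes, and the median size regardless of sign was 0.04 against 0.07. The count of 131 genes that passed over all genes was itself unsteady, at 19, 36 and 16 without PBS replicates 1, 2 and 3 and at 83, 15 and 19 without IL-33 replicates 1, 2 and 3; in each of these 6 fits, none of the 9 genes passed.

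**Figure D1:**
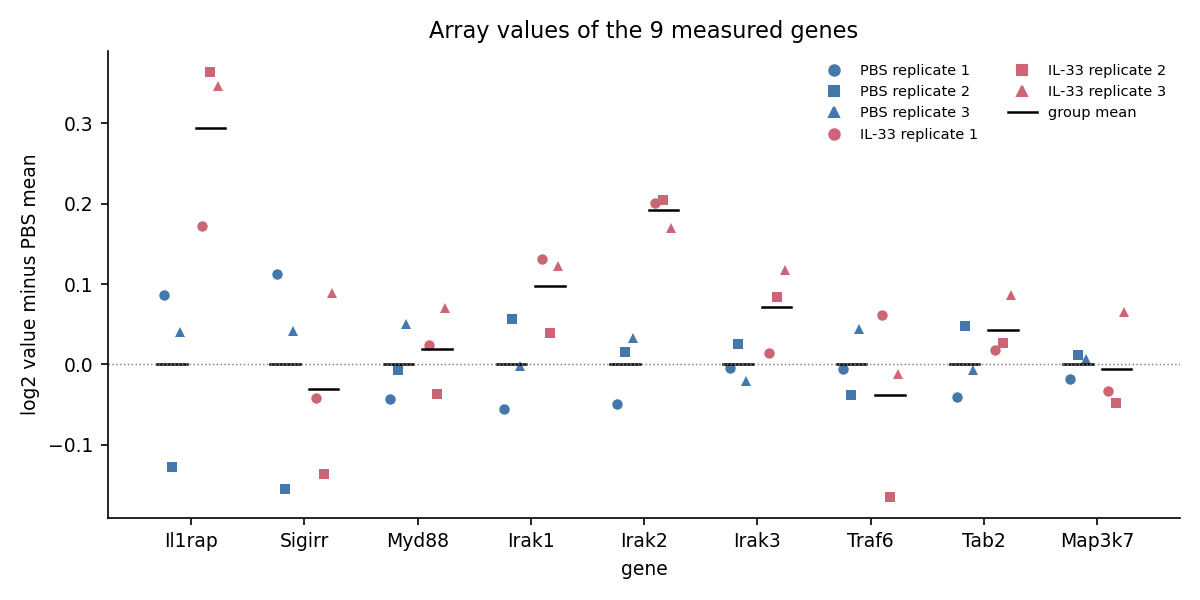
Each point is 1 array's log2 value of a gene minus that gene's PBS mean (y axis), for the 9 measured genes (x axis); colours give the group, symbols the replicate and bars the group mean. The IL-33 points lie wholly above the PBS points for Il1rap and Irak2, by means of 0.29 and 0.19, and overlap them for the other 7 genes.

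At the receptor, Il1rap had log2 values of 7.28, 7.07 and 7.24 in PBS replicates 1 to 3 and of 7.37, 7.56 and 7.54 in IL-33 replicates 1 to 3. Every IL-33 value lay above every PBS value, and IL-33 replicate 1 was the nearest, above PBS replicate 1 by less than the range of the PBS arrays. The means were 7.20 ± 0.11 and 7.49 ± 0.11 (SD, n = 3 each), a difference of 0.29 ± 0.08 (SE) with a 95% interval of 0.10 to 0.49, or 1.23-fold (1.07 to 1.40). Its adjusted p was 0.192 (limma), and 3.44% of all genes had a larger difference in either direction. Il1rap thus had the largest difference of the 9 genes without passing the test.

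The annotation assigns 2 further probe sets to Il1rap alone, and both gave low values near the dim end of the scale, where the mast cell marker Fcer1a also lay (3.10 in the PBS arrays). The second read 3.03, 3.06 and 3.02 in the PBS arrays and 3.37, 3.33 and 3.12 in the IL-33 arrays, again without overlap, with a difference of 0.23 (95% interval 0.04 to 0.43). The third read 3.53, 3.64 and 3.52 against 3.87, 3.63 and 3.57, which overlap, with a difference of 0.13 (-0.10 to 0.36). At such values the table gives no sign of whether a transcript was detected, since it holds no detection calls, so these 2 probe sets lend nothing to the difference of the first. IL-33 replicate 1 was the lowest of its group on the first and the highest on the others. Fitted over all probe sets other than controls, the adjusted p was 0.385, 0.441 and 0.721 (limma), in the same order. Il1rap makes membrane and soluble forms, and which form each probe set reads was not stated.

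**Figure D2:**
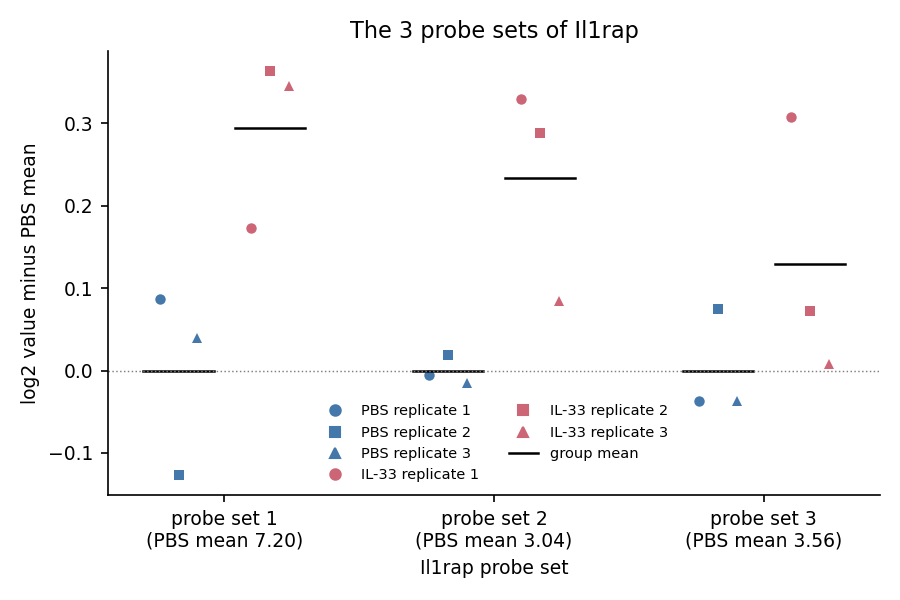
Each point is 1 array's log2 value minus the PBS mean of that probe set (y axis) for the 3 probe sets of Il1rap (x axis, PBS mean below each); bars are group means. The mean difference is 0.29, 0.23 and 0.13, and the array symbols change order between probe sets.

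Sigirr, a receptor of the IL-1 receptor family that dampens IL-1 and Toll-like receptor signals, was the only measured gene of the 9 below the median level of all genes (5.75). It read 5.34, 5.08 and 5.27 in the PBS arrays and 5.19, 5.09 and 5.32 in the IL-33 arrays. The groups overlapped fully, with means of 5.23 ± 0.14 and 5.20 ± 0.11 (SD, n = 3 each). The difference was -0.03 (95% interval -0.24 to 0.18), the widest interval of the 9, and the adjusted p was 0.925 (limma).

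Myd88, the adaptor that carries the signal from the TIR domains to the IRAK kinases, read 10.65, 10.69 and 10.74 in the PBS arrays and 10.72, 10.66 and 10.76 in the IL-33 arrays. The lowest and the highest of the 6 values were thus 1 from each group. Its difference was 0.02 (95% interval -0.11 to 0.15) with an adjusted p of 0.919 (limma), so that a change larger than 1.11-fold upward lies outside the interval. This is the gene whose promoter holds the overlapping ISRE and GAS letters shown above.

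Among the IRAK kinases, Irak2, which sustains MyD88 signalling, had log2 values of 10.29, 10.35 and 10.37 in the PBS arrays and 10.54, 10.54 and 10.51 in the IL-33 arrays. The groups did not overlap, and the gap between them was wider than the spread within either. The means were 10.34 ± 0.04 and 10.53 ± 0.02 (SD, n = 3 each). The difference of 0.19 ± 0.05 (SE; 95% interval 0.08 to 0.31), or 1.14-fold, ranked 781st of 22180 by p, with an adjusted p of 0.170 (limma). The call differed between settings: Irak2 passed as higher with a prior variance trended on intensity and robust to outliers (adjusted p 0.00815, limma) and when only the brighter genes, those not below the median level, were tested (adjusted p 0.0366, limma), and in none of the other 13 alternatives. In those settings 1000 and 760 genes passed in place of 131, and Il1rap had adjusted p of 0.0602 and 0.0612.

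Irak1, the kinase that IRAK4 phosphorylates, read 8.62, 8.73 and 8.67 in the PBS arrays and 8.81, 8.71 and 8.80 in the IL-33 arrays. IL-33 replicate 2 fell inside the PBS range and the others lay above it. The difference was 0.10 (95% interval -0.03 to 0.23), with an adjusted p of 0.515 (limma). Irak3, the IRAK-M protein that restrains the pathway in macrophages, read 10.51, 10.54 and 10.49 against 10.53, 10.60 and 10.63. Here IL-33 replicate 1 fell inside the PBS range. The difference was 0.07 (95% interval -0.05 to 0.19), with an adjusted p of 0.626 (limma). The 3 measured IRAK genes thus all had a positive difference, as did 5794 of the 11090 genes at or above the median level. Of these 3, only Irak2 had an interval above 0.

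Behind the IRAK kinases, Traf6, the ubiquitin ligase, read 8.57, 8.54 and 8.62 in the PBS arrays and 8.64, 8.41 and 8.56 in the IL-33 arrays. IL-33 replicate 1 was the highest of the 6 and IL-33 replicate 2 the lowest. The difference was -0.04 (95% interval -0.20 to 0.13) with an adjusted p of 0.867 (limma), and it was 0.02 without IL-33 replicate 2. Tab2, which binds the ubiquitin chains, read 10.67, 10.76 and 10.70 against 10.73, 10.74 and 10.80, with IL-33 replicate 3 above the PBS range and the others inside it. The difference was 0.04 (95% interval -0.08 to 0.16), with an adjusted p of 0.784 (limma). Map3k7, the kinase TAK1, read 9.05, 9.08 and 9.07 against 9.03, 9.02 and 9.13, so that the PBS values lay inside the IL-33 range. Its difference of -0.0050 (95% interval -0.13 to 0.12) was the smallest of the 9, with an adjusted p of 0.983 (limma).

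**Figure D3:**
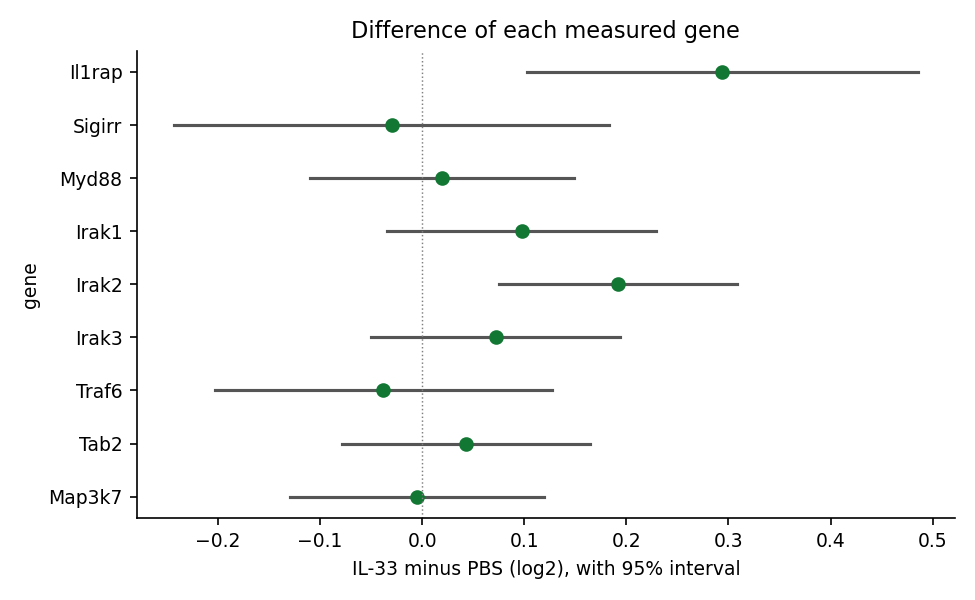
Points give the difference in log2 value, IL-33 minus PBS (x axis), of each measured gene (y axis), from receptor at the top to kinase at the bottom, and lines the 95% interval of the limma fit (n = 3 each). The intervals of Il1rap (0.10 to 0.49) and Irak2 (0.08 to 0.31) lie above 0 and the other 7 include it.

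Taken by the median, the 9 genes were measured with less spread than most. Their median standard deviation within a group was 0.05 against 0.09 over all genes, and 8 of the 9 lay at or above the median level, where it was 0.07. Il1rap and Sigirr, at 0.11 and 0.13, were above both of these, and Traf6, at 0.087, above the latter. No array stood apart across the 9 genes: the mean deviation from the group mean lay between -0.03 and 0.05 for each of the 6 arrays. The largest single deviation was 0.15, of Sigirr in PBS replicate 2. Apart from Il1rap, the highest upper bound was 1.24-fold (Irak2), and the lowest lower bound of any was 0.845 times the PBS level (Sigirr). Placing a probe set above or below the median of all genes describes its brightness on the array, not an amount of transcript, and no order of transcript levels among the 9 genes is drawn from it.

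Over the 6 arrays, the genes at or above the median level whose values most resembled those of Il1rap were Socs6, Rinl and Shmt2, with Pearson r of 0.9975, 0.989 and 0.986. This describes 6 points that share 1 difference between groups, and 43 of 11089 genes had an r of at least 0.95. Socs6, of the suppressors of cytokine signalling, differed by 0.20, Rinl by 0.07 and Shmt2, a mitochondrial enzyme of serine metabolism, by 0.08, and none of them passed. Among the other receptor-proximal genes at or above that level, r with Il1rap was 0.764 for Irak2, 0.742 for Irak3, 0.356 for Irak1, 0.327 for Tab2, 0.132 for Myd88, -0.0224 for Map3k7 and -0.401 for Traf6.

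The rest of the pathway was read from 5 lists, of which 53 of 59 genes were measured. Across them 1 gene fell and none rose, where 0.591% of all genes passed, and 10 of the 53 had an unadjusted p under 0.05, where 13.2% of all genes did. At or above the median level, where 44 of the 53 lay, 1979 of 11090 genes did (limma). Among the 7 other receptor chains of the IL-1 family none passed, and 1 had an unadjusted p under 0.05. That was Il18rap, the accessory chain of the IL-18 receptor, at 7.42, 7.38 and 7.39 in the PBS arrays and 7.73, 7.55 and 7.74 in the IL-33 arrays. The groups did not overlap, and the difference was 0.27 ± 0.07 (SE), with an adjusted p of 0.148 (limma). Il1r1, the signalling receptor of IL-1, differed by 0.16 from a PBS level of 4.14 (adjusted p 0.424, limma), and its groups overlapped. The differences of the accessory chains Il1rap and Il18rap were thus 0.29 and 0.27, and neither passed. Il18rap was the highest of its list, whose differences ran from -0.16 (Il1rapl2) to 0.27, with 5 above 0 and 2 below. Il1rapl1, also of that list, differed by 0.03.

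Among the 4 other adaptors with a TIR domain none passed, and 1 had an unadjusted p under 0.05. Ticam2, which links TLR4 to the TRIF adaptor, read 8.33, 8.46 and 8.50 in the PBS arrays and 8.81, 8.66 and 8.69 in the IL-33 arrays. These groups did not overlap, and the difference of 0.29 ± 0.07 (SE) had an adjusted p of 0.147 (limma). Tirap, the adaptor that brings MyD88 to TLR2 and TLR4, differed by -0.10 with an adjusted p of 0.543 (limma).

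Of the 18 measured ubiquitin ligases, complex partners and inhibitors none passed, and 4 had an unadjusted p under 0.05. Tnfaip3, the enzyme A20 that trims the ubiquitin chains TRAF6 makes, read 8.56, 8.31 and 8.58 in the PBS arrays and 7.99, 7.80 and 7.74 in the IL-33 arrays. Its values did not overlap, its difference was -0.64 ± 0.10 (SE), larger than that of any of the 9 receptor-proximal genes, and its adjusted p was 0.0523 (limma). It passed in 6 of 15 alternatives, among them the centring on the 75th percentile and the further quantile normalization. Those 6 include no fit that leaves out 1 array, and not the replicate block, averaged probe sets or the test of every probe set. Tifa, a TRAF6-binding adaptor, differed by 0.18 (adjusted p 0.189, limma). The median over these 18 genes was -0.02.

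Of the 11 measured IKK and MAP kinases none passed, with 0 at an unadjusted p under 0.05, and the median difference was 0.0058. Ikbkb, a catalytic subunit of IKK, differed by -0.13 and Mapk8, the kinase JNK1, by 0.10, with adjusted p of 0.477 and 0.535 (limma). Of 13 early target genes, 1 fell and 4 had an unadjusted p under 0.05. Among these 4, Il1b, Ccl2 and Ier3 were lower, and Nfkbiz was higher, by 0.19 (adjusted p 0.167, limma). Il1b, which encodes a cytokine of the IL-1 family, read 9.28, 9.44 and 9.24 in the PBS arrays and 8.83, 8.75 and 8.73 in the IL-33 arrays. Its groups did not overlap, its level fell 1.46-fold (adjusted p 0.0285, limma), and it did not pass in any of the 6 fits that leave out 1 array. The list's median was -0.03.

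**Figure D4:**
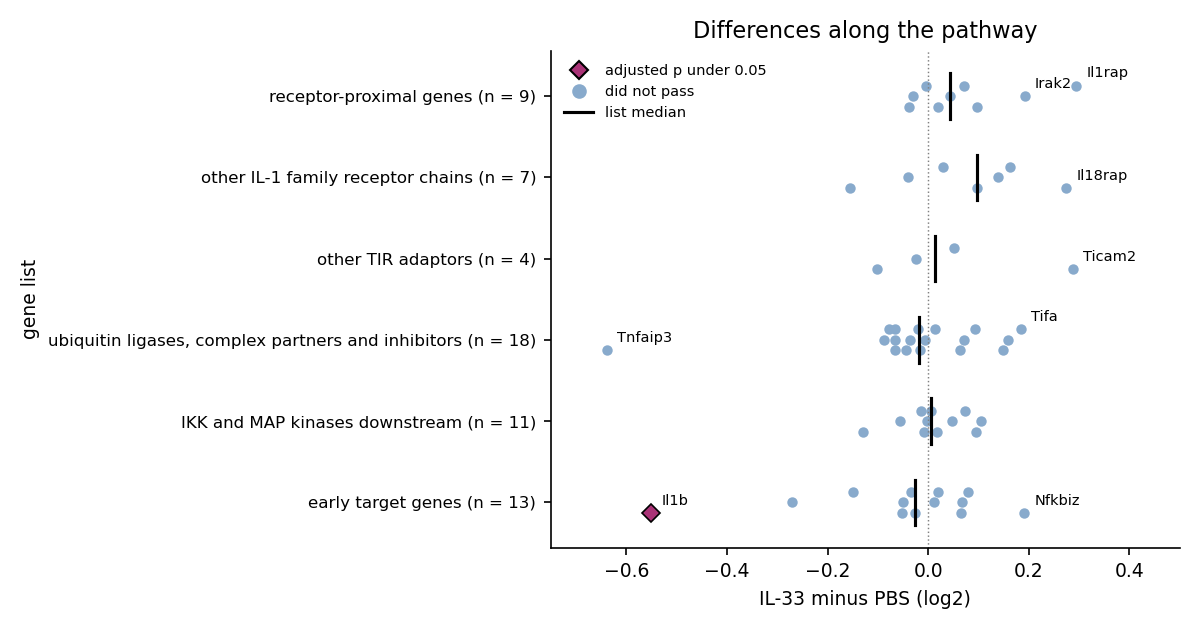
Each point is 1 gene's difference in log2 value, IL-33 minus PBS (x axis), for the 9 receptor-proximal genes and the 5 pathway lists (y axis, with the number measured); the diamond passed at an adjusted p under 0.05 (limma) and black lines are list medians. Il1b, at -0.55, is the only gene of these 6 rows that passed, and the list medians lie between -0.03 and 0.10.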

How the data were processed

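Per the labels' protocols, RNA was taken with Trizol and turned into biotin-labelled cDNA for whole-transcript arrays. The authors deposited log2 expression values of 41345 probe sets on each array, made with RMA, per the submitters' processing notes; its settings and the build were not stated. RMA gives all arrays like distributions and thereby hides a shift of most genes. No detection calls were used. Of the probe sets, 25335 had an annotation, 23521 with 1 symbol and 1814 with several, which named no gene.

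The deposited values were fitted with limma 3.58.1 in R 4.3.3 (lmFit, eBayes, group as the single term), with 1 probe set for each of 22180 genes and Benjamini-Hochberg adjustment over all of them at a threshold of 0.05. The fit was tested on simulated data. Members, lists and tests were chosen with earlier results of these data known, and the motifs after the promoters had been searched. All 9 measured members were named, and of each list the genes that passed or, with none, the 2 of smallest p. Alternatives were limits on dim genes at the median and at the 25th percentile of gene means, quantile normalization on top of RMA, arrays centred on their 75th percentile, a gene's probe sets averaged, every probe set tested, a block for the replicate number, array weights, a prior variance that was trended and robust, and the loss of each array.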

Additional observations from a re-analysis of the deposited data

How the results depend on the processing

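The direction of the difference held in every alternative run for Il1rap, Irak1, Irak2, Irak3 and Tab2. In several alternatives it could not change. The limits on dim genes, the test of every probe set, the block and the trended prior variance leave each difference as it was. Averaging probe sets did so for all but Il1rap. The others reuse the same arrays. Il1rap ranged from 0.22 to 0.35 and never passed, with adjusted p (limma) from 0.0602 to 0.440. Among genes at or above the median level, 760 genes passed. They included 1 of the 8 receptor-proximal genes left (Irak2), 1 other receptor chain (Il18rap) and 1 other TIR adaptor (Ticam2). They also included 2 ubiquitin genes and 2 early target genes (Il1b lower, Nfkbiz higher). With the trended and robust prior variance, 1000 genes passed, with 1 receptor-proximal gene (Irak2), 1 receptor chain, 1 adaptor, 2 ubiquitin genes and 3 early target genes. The early target genes were Il1b and Ccl2, both lower, and Nfkbiz, higher. Tnfaip3 made 1 ubiquitin gene pass without the dimmest genes (296 genes passed in all), with quantile normalization, with centring and with array weights. Over all probe sets 17 passed, and 0 early target genes. With the replicate number as a block 21 passed, and 0 early target genes, and no other call of a member or list changed. Same-numbered arrays deviated together at r = 0.0818, 0.0875 and 0.0225, PBS replicate 3 correlated better with IL-33 replicate 1 (0.0435) than with its own number, and the numbers were not taken as pairs. Leaving out 1 array gave 15 to 83 genes and 0 early target genes. It gave differences of -0.0062 to 0.0472 for Myd88, -0.0881 to 0.0248 for Traf6, -0.1071 to 0.0265 for Sigirr and -0.0404 to 0.0162 for Map3k7, which was 0.0053 with array weights, so these 4 have no settled sign. The cause of these shifts was not tested. Sigirr had no value with the limit at the median level. With 3 arrays a group, the median standard error of 0.055 for the 9 genes limits what could be seen.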
